A study of Mus musculus with 2 samples.

Results

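Fc gamma receptors are the cell surface proteins that bind the constant part of IgG. The members described here are Fcgr1, Fcgr3, Fcgr4, Fcgr2b and Fcgrt, 5 of the 32285 genes counted. They were chosen by symbol for their role in binding IgG, with earlier results of these data known. All 5 symbols were found, each carried by a single gene ID. They were measured by single-cell RNA sequencing of the mouse temporomandibular joint (TMJ), in which each captured RNA molecule carries a unique molecular identifier (UMI). The series held 2 libraries. One was of joints given PBS and the other of joints given complete Freund's adjuvant (CFA), an oil with killed mycobacteria that causes joint inflammation. Both came from female WT C57BL/6 mice (C57BL/6J in the methods), given 8 to 10 weeks of age in the labels. Per the methods, both TMJs received 10 µL of PBS or 10 µL of CFA (5 mg/mL) at 8 weeks of age, joints of 3 animals per group were collected 3 weeks later, and CD45 positive cells were reduced with beads before loading. The shares of immune cells below are therefore shares of a depleted suspension. Per the methods, the tissue of each group was digested together, and with 1 library per condition no difference has a replicate check and no test was made.

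Fcgr1, Fcgr3 and Fcgr4 are activating receptors, which pair with the common gamma chain (Fcer1g) and signal through its tyrosine motif to the kinase Syk. Fcgr2b is the inhibitory receptor, whose own cytoplasmic motif recruits the lipid phosphatase Inpp5d and counters activating receptors on the same cell. Fcgrt is the heavy chain of the neonatal Fc receptor, which pairs with beta-2 microglobulin (B2m), binds IgG and albumin in acidic endosomes and returns them to the cell surface, and is known from endothelium and macrophages. Immune complexes engage activating receptors on macrophages, neutrophils and mast cells, and B cells are known to use Fcgr2b as their only IgG receptor of this family.

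In the GENCODE annotation of GRCm38, Fcgr2b (chr1:170958617-170976547, minus strand), Fcgr4 (chr1:171018920-171029761, plus strand) and Fcgr3 (chr1:171051174-171064935, minus strand) lie within 106319 bases of chromosome 1. Fcgr1 lies apart on chromosome 3 (chr3:96282909-96293969, minus strand) and Fcgrt on chromosome 7 (chr7:45092990-45103851, minus strand). The bases before the start of the 3 activating receptors are shown because all 3 hold the same short motif there. They are the 120 bases before each RefSeq start in GRCm38.p6, written 5′ to 3′ on the gene's own strand, at chr1:171018806-171018925 for Fcgr4, chr1:171059404-171059523 for Fcgr3 and chr3:96293970-96294089 for Fcgr1. The Fcgr3 window lies inside the GENCODE span of the gene, since RefSeq places the start further downstream. Capitals mark the core GAGGAA bound by PU.1, a transcription factor of myeloid cells and B cells, on the opposite strand (read here as TTCCTC).
Fcgr4: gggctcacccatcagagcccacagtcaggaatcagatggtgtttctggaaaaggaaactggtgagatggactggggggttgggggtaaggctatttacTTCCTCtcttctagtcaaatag
Fcgr3: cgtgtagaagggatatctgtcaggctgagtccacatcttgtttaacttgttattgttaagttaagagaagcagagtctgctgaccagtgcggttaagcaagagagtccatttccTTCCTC
Fcgr1: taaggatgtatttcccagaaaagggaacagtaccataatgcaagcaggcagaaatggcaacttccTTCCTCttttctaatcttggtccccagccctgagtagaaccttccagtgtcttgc
The PU.1 core began 22 bases before the start of Fcgr4 and 6 before that of Fcgr3, and 55 before that of Fcgr1. Over the 250 bases before each start, searched on both strands, it was not found in Fcgr2b or Fcgrt. Among 27025 promoters of that length, 23.1% hold the PU.1 core, so a match is a description of these letters only. The last 500 bases of the longest transcripts of Fcgr1, Fcgr3, Fcgr4 and Fcgr2b share no run of 50 bases, so reads from those stretches can be told apart. Over whole transcripts Fcgr3 and Fcgr2b share 166 runs of 50 bases, 12.8% of those of Fcgr3. Reads from further upstream were not examined. Fcgrt was not compared. An antisense gene, Gm38204, overlaps Fcgr2b.

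After removal of barcodes with under 500 genes, over 10% mitochondrial UMIs or over 1% hemoglobin UMIs, 2667 of 7671 PBS barcodes and 4014 of 5709 CFA barcodes were kept, with medians of 7022 and 6509.5 UMIs. The hemoglobin limit removed 3178 PBS and 339 CFA barcodes that had passed the other limits. The libraries shared 10 barcode sequences, 2 of them among the kept cells. Of 34 clusters, 28 were named from marker genes as 16 classes, and 6 stayed unnamed. An unnamed cluster matters here, led by Prtn3, Ctsg, Mpo, Elane, Ly6c2, F13a1 and Ccr2, genes of neutrophil precursors and of monocytes, and is called the Ly6c2 Ccr2 Mpo cluster. Levels are UMIs of a gene per 1000000 UMIs of the summed cells (CPM), with exact Poisson intervals. A ratio is the CFA level over the PBS level with an exact 95% interval. The intervals cover counting error only and not the spread between animals. A gene is counted as higher or lower when the ratio was at least 2-fold and it had at least 20 UMIs over both libraries.

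Over all kept cells, the 4 cell surface receptors were far higher in the CFA library, and Fcgrt was lower. Fcgr1 had 36 PBS and 1348 CFA UMIs, 1.32 against 30.3 CPM, a ratio of 22.9 (16.5 to 32.9). Fcgr3 had 208 and 6514 UMIs, 7.65 against 147 CPM, a ratio of 19.2 (16.7 to 22.1). Fcgr4 had the highest ratio of the members, 36.3 (26.8 to 50.5), from 42 and 2493 UMIs or 1.54 and 56.1 CPM. The inhibitory Fcgr2b moved with them, from 188 UMIs and 6.91 CPM to 6273 UMIs and 141 CPM, a ratio of 20.4 (17.7 to 23.7). Fcgrt had 4351 PBS and 3172 CFA UMIs, 159.9 against 71.4 CPM, a ratio of 0.446 (0.426 to 0.467). Thus 4 of 5 members were higher by at least 2-fold and 1 was lower, where 9.56% of all genes tested were higher and 10.4% lower. The median ratio over those genes was 0.869.

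The cells that held the receptors also differed in number between the libraries. Macrophage-like cells, named from markers such as C1qa, Adgre1 and Mrc1, numbered 18 in the PBS library (0.675% of cells) and 308 under CFA (7.67%). Osteoclast-like macrophages, named from markers such as Acp5, Gpnmb and Dcstamp, numbered 1 and 276. The 1 PBS cell of this cluster held no UMI of Acp5, Gpnmb or Dcstamp. It had 1 UMI over the 8 markers of the class and held 6 of 8 B cell markers. Mature neutrophil-like cells numbered 17 and 182, immature neutrophil-like cells 55 and 168, and cells of the Ly6c2 Ccr2 Mpo cluster 37 and 132. In the CFA library, Fcgr1 was mainly a transcript of macrophage-like cells, with 59.0% of its UMIs there and 22.9% in osteoclast-like macrophages. Fcgr3 and Fcgr2b had the opposite order, with 59.5% and 65.5% of their UMIs in osteoclast-like macrophages and 23.9% and 25.2% in macrophage-like cells. Fcgr4 was divided evenly, with 40.6% in each of these classes and 6.70% in mature neutrophil-like cells. In the PBS library, 66.7% of the 36 Fcgr1 UMIs were in the 18 macrophage-like cells, 33.2% of Fcgr3 was in the Ly6c2 Ccr2 Mpo cluster, 35.7% of Fcgr4 was in immature neutrophil-like cells and 27.7% of Fcgr2b was in B cell-like cells. Fcgrt came from other cells, with 32.4% of its PBS and 32.5% of its CFA UMIs in fibroblast-like cells and 25.1% and 18.9% in endothelial-like cells.

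**Figure D1:**
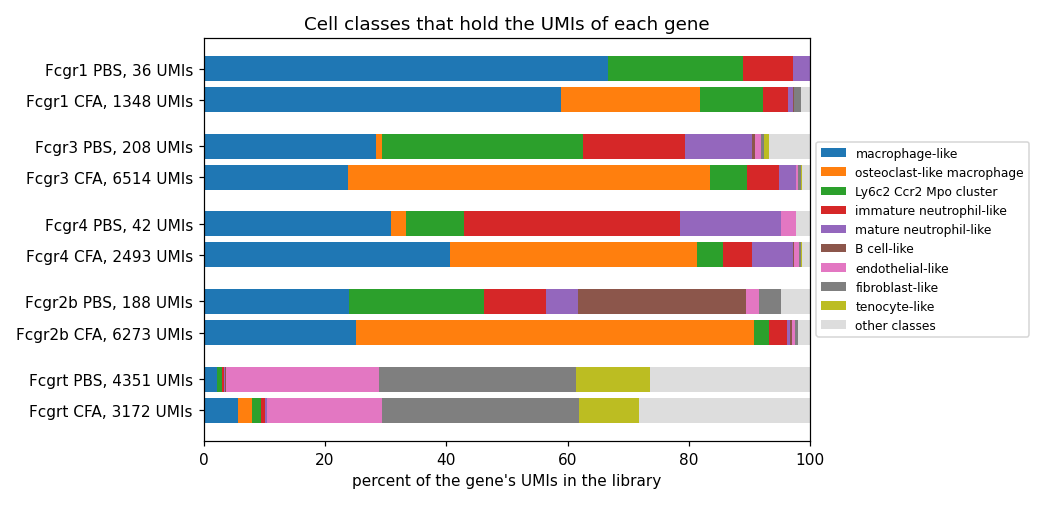
Percent of each member's UMIs found in each cell class, with a bar for the PBS and a bar for the CFA library. The CFA bars of Fcgr3 and Fcgr2b are mostly osteoclast-like macrophages (59.5% and 65.5%), that of Fcgr1 mostly macrophage-like cells (59.0%), and both Fcgrt bars are led by fibroblast-like cells.

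Levels within a class do not depend on how many cells it held. In the CFA library, Fcgr1 stood at 184 CPM (172 to 198) in macrophage-like cells, 57.6 in the Ly6c2 Ccr2 Mpo cluster and 33.3 in osteoclast-like macrophages, each level above the interval of the next, whereas osteoclast-like and immature neutrophil-like cells (24.0) had overlapping intervals. Fcgr3 was highest in osteoclast-like macrophages at 418 CPM (405 to 431), then macrophage-like cells at 361 (343 to 379), mature neutrophil-like cells at 259.9 (223 to 301), the Ly6c2 Ccr2 Mpo cluster at 167 and immature neutrophil-like cells at 145, the last pair with overlapping intervals. Fcgr4 had another order. It stood at 245 CPM (209 to 285) in mature neutrophil-like cells and 235 (221 to 250) in macrophage-like cells, levels whose intervals overlap, and at 109 in osteoclast-like macrophages. Fcgr2b stood at 442 CPM (429 to 456) in osteoclast-like macrophages and 367 in macrophage-like cells, well above the other classes, of which immature neutrophil-like cells had 75.9 and mature neutrophil-like cells 48.5. Mast cell or basophil-like cells were few (7 PBS and 11 CFA cells) and held Fcgr3 (212 and 137 CPM from 10 and 17 UMIs) and Fcgr2b (2 and 13 UMIs) with no UMI of Fcgr1, Fcgr4 or Fcgrt.

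**Figure D2:**
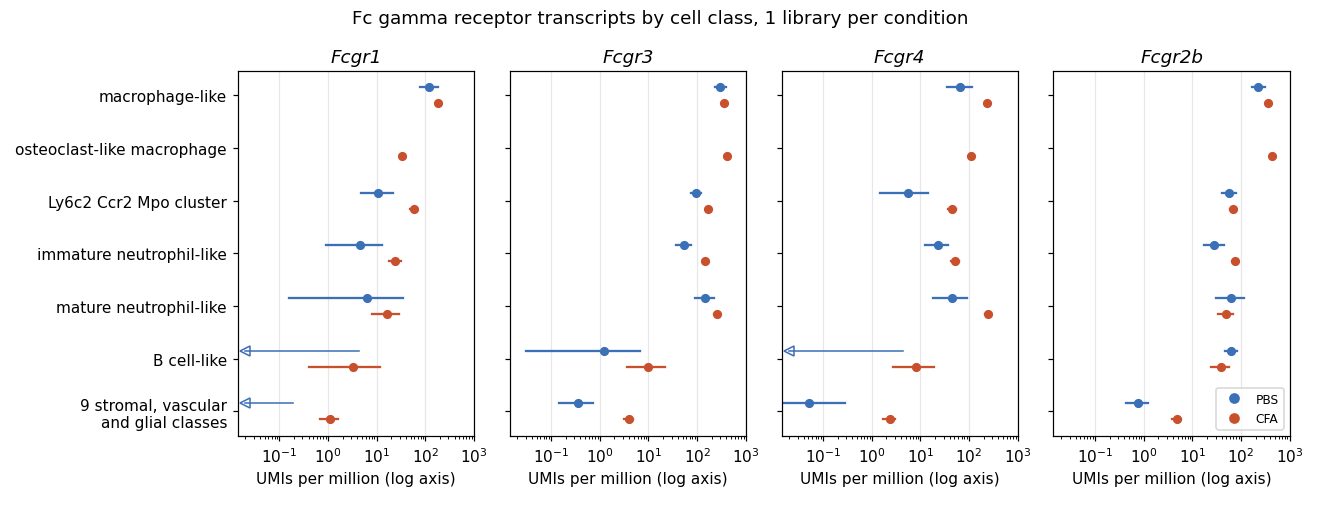
CPM of Fcgr1, Fcgr3, Fcgr4 and Fcgr2b by cell class on a log axis, with a point for each library and a line for its 95% Poisson interval; an open triangle marks 0 UMIs with a line to the upper limit. The 3 highest CFA levels of Fcgr3 are those of osteoclast-like macrophages (418), macrophage-like (361) and mature neutrophil-like cells (259.9), and the stromal classes sit at the low end.

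Stromal, vascular and glial cells gave the background level of the 4 cell surface receptors. Over 9 such classes (2022 PBS and 2368 CFA cells), Fcgr1 stood at 0 and 1.10 CPM, Fcgr3 at 0.356 and 3.88, Fcgr4 at 0.0508 and 2.33 and Fcgr2b at 0.762 and 4.75. The gamma chain Fcer1g, a transcript of blood cells, stood at 4.17 and 43.1 CPM in the same cells. A count of 0 UMIs, as for Fcgr1 in the PBS cells of these classes, allows up to 3 counts. The CFA background was thus higher for every receptor, and levels in classes near it were not read as expression. They include the small amounts of Fcgr3 and Fcgr2b in endothelial-like and fibroblast-like cells, at ratios of 3.84 to 26.9 from 1 to 7 PBS UMIs. Both classes are among the 9, so their nearness to that background is partly built in. In the CFA library Fcgr3 and Fcgr2b stood at 3.62 and 4.34 CPM in endothelial-like cells and 5.24 and 5.24 in fibroblast-like cells. Schwann-like, chondrocyte-like and satellite cell-like cells together had 3.24 and 6.95. Erythroid-like cells and an unnamed cluster led by Siglech, Stat4 and Flt3 stood higher in the CFA library, with Fcgr3 at 25.4 and 25.98 CPM and Fcgr2b at 35.9 and 33.1 CPM, near the Fcgr2b level of CFA B cell-like cells. In the PBS library Fcgr2b had 0 UMIs in both, and Fcgr3 had 0 in erythroid-like cells and 2 in that cluster. Whether these UMIs came from the cells of these classes was not tested.

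In macrophage-like cells the activating receptors differed less between the libraries than over all cells. Fcgr1 stood at 122 CPM in the 18 PBS cells and 184 in the 308 CFA cells, a ratio of 1.51 (1.01 to 2.38). Fcgr3 stood at 299.6 and 361 CPM, and its ratio of 1.20 had an interval that spans 1 (0.929 to 1.59). Fcgr4 was the exception, at 66.0 and 235 CPM, a ratio of 3.56 (2.07 to 6.71). Fcgr2b stood at 228 and 367 CPM, a ratio of 1.61 (1.19 to 2.21). Fcgrt went the other way, from 498 to 42.0 CPM, a ratio of 0.0844 (0.0657 to 0.109). So 1 member was higher by at least 2-fold and 1 lower, where 17.6% of the genes tested in this class were higher and 13.8% lower. Classes with under 20 cells in a library, as here and for mature neutrophil-like and lymphatic-like cells, were admitted down to 10 cells after the data had been seen.

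Few PBS cells carried these counts. The 5 highest PBS macrophage-like cells held all 13 UMIs of Fcgr4, 95.8% of Fcgr1 and 75.5% of Fcgrt. In the CFA library the 5 highest cells held 11.2% of Fcgr4, 10.2% of Fcgr1 and 24.3% of Fcgrt. Other cell types' markers were present too, with the B cell list at 508 CPM in the PBS and 102 CPM in the CFA cells, the mature neutrophil list, which includes Il1b that macrophages also make, at 4590 and 5418, and the fibroblast list at 107 and 53.4. The osteoclast-like macrophage list differed most, at 102 and 1060 CPM, and the immature neutrophil list stood at 112 and 578. Neither choice below left out cells for osteoclast-like macrophage markers, so their part in the ratios was not tested. When the 7 PBS and 34 CFA cells with under 3 of 16 macrophage or osteoclast markers were left out, Fcgr4 had a ratio of 2.89 (1.65 to 5.61), Fcgrt 0.0694 (0.0535 to 0.0903), Fcgr1 1.11, Fcgr3 0.934 (0.719 to 1.24) and Fcgr2b 1.29. When instead the 9 PBS and 254 CFA cells with 3 or more B cell or neutrophil markers were left out, Fcgr4 had a ratio of 6.55 (1.75 to 55.1), Fcgrt 0.170, Fcgr1 5.73 (1.52 to 48.3), Fcgr3 0.449 (0.294 to 0.700) and Fcgr2b 0.562. Under that second choice Fcgr4 and Fcgr1 had only 2 PBS UMIs each, in the 9 PBS cells left. Fcgr4 was thus higher and Fcgrt lower in CFA macrophage-like cells under both choices. The ratio of Fcgr3 fell below 1 under both, with an interval that spans 1 under the first, and that of Fcgr2b under the second.

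Immature neutrophil-like cells, named from markers such as the secondary granule genes Ltf and Camp, held more of all 4 cell surface receptors in the CFA library. Fcgr3 had 35 UMIs (52.6 CPM) in 55 PBS cells and 345 UMIs (145 CPM) in 168 CFA cells, a ratio of 2.77 (1.95 to 4.04). Fcgr2b stood at 28.5 and 75.9 CPM, a ratio of 2.66 (1.65 to 4.52). Fcgr4 stood at 22.5 and 51.4 CPM, a ratio of 2.28 (1.33 to 4.20), and Fcgr1 at 4.51 and 24.0 CPM from 3 and 57 UMIs, a ratio of 5.33 (1.73 to 26.6). Fcgrt was low in both, at 21.03 and 10.1 CPM, a ratio of 0.481 (0.239 to 1.01). By these sums 4 of 5 members were higher and 1 lower, where 8.18% of the genes tested were higher and 11.4% lower.

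Macrophage markers moved with that difference. The 8 macrophage markers summed to 141 CPM in the PBS and 770 CPM in the CFA cells of this class, all 8 were detected in both, and 1 of 55 PBS but 22 of 168 CFA cells (13.1%) held at least 3 of them. The 5 highest CFA cells held 56.1% of the Fcgr1, 39.3% of the Fcgr4, 38.3% of the Fcgr2b and 26.4% of the Fcgr3 UMIs. Without the 2 PBS and 32 CFA cells with 3 or more of the 16 macrophage or osteoclast markers, a choice made after seeing the data, Fcgr1 had 3 and 2 UMIs, a ratio of 0.282 (0.0236 to 2.47), Fcgr4 had a ratio of 0.932 (0.492 to 1.85) and Fcgr2b 1.24 (0.693 to 2.35). Only Fcgr3 kept an interval above 1, at 49.0 and 96.2 CPM, a ratio of 1.96 (1.32 to 3.02), and that is under 2-fold. With cells holding 3 or more B cell markers left out as well, Fcgr3 had a ratio of 1.99 (1.28 to 3.21). Of the CFA UMIs in this class, 2 of 57 of Fcgr1, 33 of 122 of Fcgr4 and 47 of 180 of Fcgr2b remained after the first exclusion. Adgre1, a marker counted here, followed Fcgr1 and Fcgr2b closely over the classes, so part of that loss is built in.

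Mature neutrophil-like cells, named from markers such as Csf3r, Cxcr2 and Mmp8, were only 17 in the PBS library. Fcgr4, a receptor for complexed IgG known from neutrophils, had 7 UMIs there and 167 in 182 CFA cells, 44.3 against 245 CPM, a ratio of 5.53 (2.63 to 14.0). Fcgr3 stood at 146 and 259.9 CPM, a ratio of 1.79 (1.15 to 2.89). Fcgr2b stood at 63.3 and 48.5 CPM, a ratio of 0.765 (0.368 to 1.74). Fcgr1 had 1 and 11 UMIs. Thus 1 of the 3 members with enough UMIs was higher, where 17.9% of the genes tested were higher and 23.0% lower. The PBS cells were a mixed group, since 8 of 17 held at least 3 B cell markers against 2 of 182 CFA cells, and that list summed to 5933 CPM against 361. Without cells holding 3 or more macrophage markers (14 PBS and 155 CFA cells left), Fcgr4 had a ratio of 5.94 (1.99 to 29.1) and Fcgr3 1.55 (0.837 to 3.18). With B cell marker cells left out as well, 8 PBS cells with 2 Fcgr4 UMIs were left and the ratio was 2.97 (0.807 to 24.8), while Fcgr3 had a ratio of 0.710 (0.350 to 1.68). Without the cells that held 3 or more macrophage or osteoclast markers, the CFA level of Fcgr4 was 275 CPM. Cells with fewer of these markers stayed in, so their part in that level was not tested.

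The Ly6c2 Ccr2 Mpo cluster had higher levels of 2 activating receptors in the CFA library. Fcgr1 had 8 UMIs (10.9 CPM) in 37 PBS cells and 138 UMIs (57.6 CPM) in 132 CFA cells, a ratio of 5.27 (2.60 to 12.4). Fcgr4 had 4 and 107 UMIs, 5.47 and 44.7 CPM, a ratio of 8.17 (3.10 to 30.5). Fcgr3 was already present in the PBS cells, at 94.4 against 167 CPM, a ratio of 1.77 (1.37 to 2.33), and Fcgr2b differed less, at 57.5 and 68.5 CPM with a ratio of 1.19 (0.845 to 1.72). Fcgrt stood at 42.4 and 20.04 CPM, a ratio of 0.473 (0.295 to 0.768). With 2 members higher and 1 lower by at least 2-fold, the shares of all genes tested in this cluster were 7.8% higher and 3.88% lower. Macrophage markers were also higher here, at 189 and 374 CPM, and 6 of 37 PBS but 50 of 132 CFA cells held at least 3 of the 8. The part of these markers in the result was not tested.

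**Figure D3:**
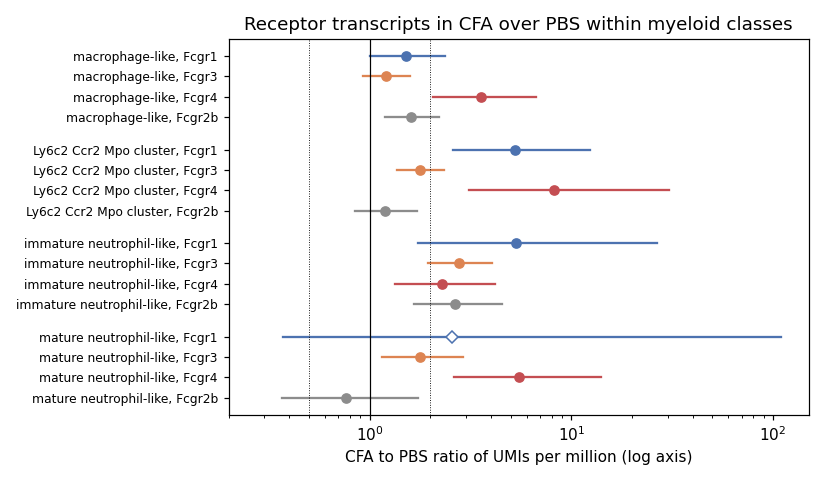
Ratio of CFA to PBS CPM of Fcgr1, Fcgr3, Fcgr4 and Fcgr2b in macrophage-like, Ly6c2 Ccr2 Mpo, immature and mature neutrophil-like cells, on a log axis. Solid lines are exact 95% intervals, points are filled where at least 20 UMIs were counted, and dotted lines mark 0.5 and 2. Fcgr4 lies above 2 in macrophage-like (3.56), mature neutrophil-like (5.53) and Ly6c2 Ccr2 Mpo cells (8.17). Fcgrt is not drawn.

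B cell-like cells, defined by markers such as Ms4a1 and Pax5, held Fcgr2b without the activating receptors in the PBS library. Of 146 PBS cells, 43 (29.5%) held an Fcgr2b UMI, and the class had 52 Fcgr2b UMIs against 1 of Fcgr3 and none of Fcgr1 or Fcgr4. Fcgr2b stood at 61.9 CPM in the PBS and 38.1 CPM in the CFA cells, a ratio of 0.616 whose interval spans 1 (0.360 to 1.02). The 88 CFA B cell-like cells also had 6 Fcgr3, 5 Fcgr4 and 2 Fcgr1 UMIs, in 3, 3 and 1 cells. Thinned to 1000 UMIs per cell, so that depth is equal, 9.59% of PBS and 5.68% of CFA B cell-like cells held Fcgr2b, against 0.0999% and 0.597% of the stromal, vascular and glial cells.

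The balance of activating to inhibitory transcripts differed between classes. UMIs count 3′ ends and carry no gene length, but how well each transcript is captured was not measured, so the ratio of Fcgr1, Fcgr3 and Fcgr4 UMIs to Fcgr2b UMIs is set between classes only. In mature neutrophil-like CFA cells it was 10.8 (7.52 to 15.9), from 355 activating and 33 Fcgr2b UMIs. It was also 10.8 without the cells that held 3 or more macrophage or osteoclast markers. It rests on the clustering, since Fcgr2b stood at 263 CPM rather than 48.5 in CFA cells classed as mature neutrophils one by one from their own markers. The 17 PBS cells gave 3.1 (1.48 to 7.09), from 31 and 10 UMIs, 9 of those 10 in a single cell. Immature neutrophil-like cells had 2.79 in the PBS and 2.91 (2.45 to 3.47) in the CFA library. Macrophage-like cells had 2.13 in both libraries, with intervals of 1.48 to 3.11 and 2.003 to 2.26, but 1.64 (0.937 to 2.92) and 3.15 (2.39 to 4.20) without the cells that held 3 or more B cell or neutrophil markers. Osteoclast-like CFA macrophages had the lowest balance of the myeloid classes, 1.27 (1.22 to 1.32), from 5200 and 4106 UMIs. The Ly6c2 Ccr2 Mpo cluster went from 1.93 (1.31 to 2.87) to 3.94 (3.31 to 4.70).

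**Figure D4:**
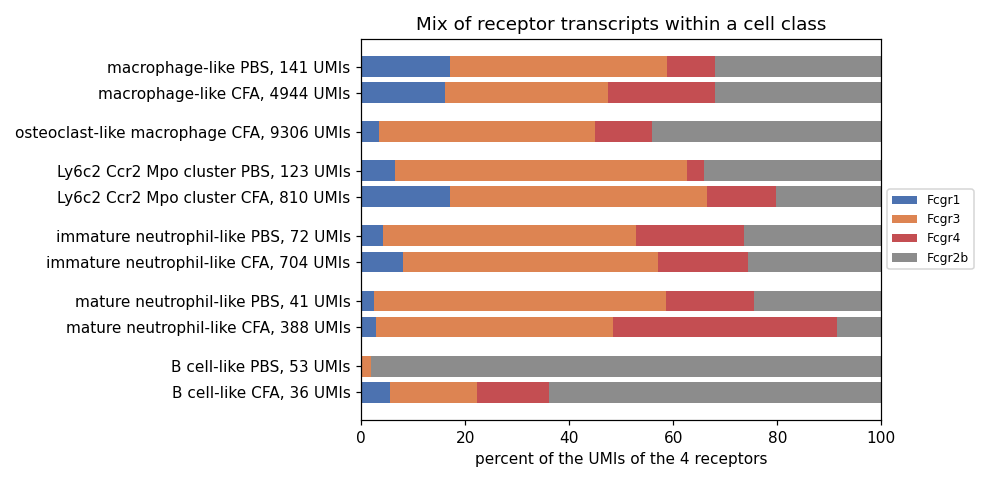
Percent of the UMIs of the 4 cell surface receptors that came from each of them, by cell class and library, with the number of UMIs in the label. Fcgr2b takes the smallest share in mature neutrophil-like CFA cells, where 355 activating stand against 33 Fcgr2b UMIs, and nearly the whole bar in PBS B cell-like cells.

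Activating and inhibitory receptors were often found in the same cell. Of osteoclast-like CFA macrophages, 94.9% held a UMI of Fcgr2b and of at least 1 activating receptor, as did 79.2% of macrophage-like, 28.0% of immature and 8.79% of mature neutrophil-like CFA cells. All 4 receptors were found in 161 of 308 macrophage-like CFA cells (52.3%) and 93 of 276 osteoclast-like macrophages (33.7%). Thinned to 1000 UMIs per cell the share with both kinds was 15.9% in osteoclast-like and 14.1% in macrophage-like cells, 1.26% in immature and 3.39% in mature neutrophil-like cells. Thinned to 2000 UMIs it was 33.7% and 31.1%, and 3.97% and 2.96%. The macrophage classes stayed above the neutrophil classes at each depth, and the thinned neutrophil shares, from 2 to 6 cells, had overlapping intervals. Mature neutrophil-like CFA cells more often held an activating receptor without Fcgr2b, 57.7% as counted and 30.5% thinned.

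Most Fcgrt UMIs were in stroma and vessels, although the 18 PBS macrophage-like cells had the highest level of any class, and Fcgrt was lower in most stromal and vascular classes of the CFA library. Fibroblast-like cells stood at 275 CPM in the PBS and 199.8 CPM in the CFA library, a ratio of 0.727 (0.670 to 0.789). Endothelial-like cells stood at 185 and 87.0 CPM from 1094 and 601 UMIs, a ratio of 0.469 (0.424 to 0.519), in a class where 5.93% of genes were lower by at least 2-fold. Lymphatic-like cells (18 PBS and 12 CFA cells) stood at 394 and 151 CPM, a ratio of 0.385 (0.240 to 0.596), against 12.2% of genes lower in that class. Schwann-like, mural-like and osteoblast or osteocyte-like cells had ratios of 0.715, 0.718 and 0.624 with intervals below 1. Tenocyte-like cells had one of the highest levels, 254 and 229.8 CPM, and a ratio whose interval spans 1 (0.906, 0.786 to 1.04), as did chondrocyte-like (96.7 and 113 CPM, 1.17, 0.944 to 1.46) and satellite cell-like cells (0.874, 0.550 to 1.40).

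Among the clusters of a class the Fcgrt ratio was not uniform. In the endothelial cluster led by Plvap, Selp and Vwf, genes of venules, Fcgrt stood at 212 CPM in the PBS and 76.7 CPM in the CFA library, a ratio of 0.362 (0.303 to 0.432). The cluster led by Sema3g, Gja5 and Sox17, genes of arteries, stood at 110 and 49.9 CPM, a ratio of 0.452 (0.325 to 0.623). The other 3 large endothelial clusters had ratios of 0.568 to 0.609. Among fibroblast-like clusters, that led by Apod and Inmt had 0.563 (0.475 to 0.665), that led by Pi16 had 0.707 (0.629 to 0.794) and that led by Angptl1 and Cilp had 0.957 (0.793 to 1.15). A shallow unnamed cluster with endothelial genes and an unnamed cluster led by Lsamp and Col8a1 had ratios of 0.286 and 0.440, where 9.71% and 22.2% of their genes were lower. Of 23 clusters with enough UMIs, Fcgrt was lower in the CFA library in 21, with an interval below 1 in 13. The interval was above 1 in 1, the erythroid-like cluster (11.1 and 21.1 CPM, from 33 and 20 UMIs).

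**Figure D5:**
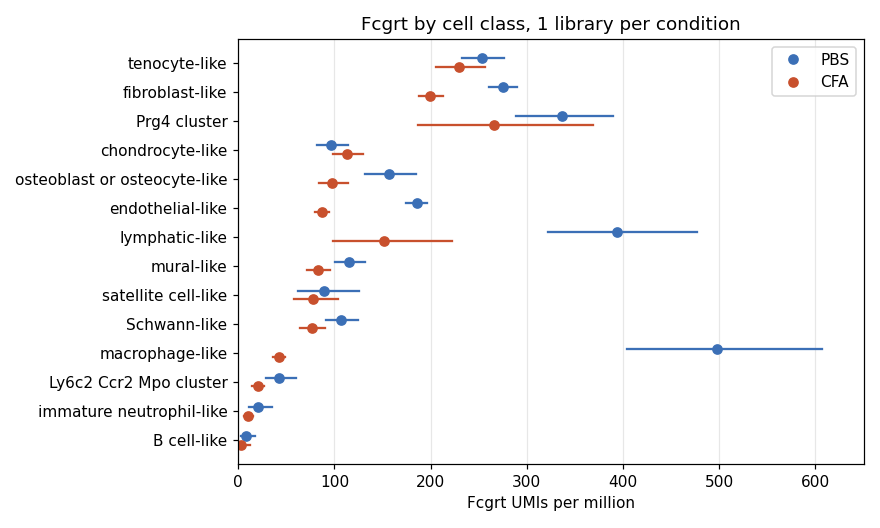
Fcgrt CPM by cell class, with a point for each library and a line for its 95% Poisson interval. Endothelial-like cells sit at 185 (PBS) and 87.0 (CFA), macrophage-like cells at 498 and 42.0, and tenocyte-like cells have overlapping intervals.

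The chains that pair with the receptors were measured in the same cells. Over all cells Fcer1g, the common gamma chain, stood at 106 CPM in the PBS and 1208 CPM in the CFA library, a ratio of 11.4 (11.0 to 11.9). In the myeloid classes that held the receptors it differed less, with ratios of 1.22 in macrophage-like cells and in the Ly6c2 Ccr2 Mpo cluster, 1.52 in immature and 2.05 in mature neutrophil-like cells. In other classes, where it was low in the PBS library, its ratio was larger, such as 48.9 in erythroid-like (6.72 and 329 CPM), 23.0 in B cell-like (2.38 and 54.7) and 67.1 in chondrocyte-like cells (0.681 and 45.7). The B cell-like ratio rests on 2 PBS UMIs (5.88 to 198) and the chondrocyte-like ratio on 1 (11.7 to 2679). The CFA levels of B cell-like and chondrocyte-like cells were near the background of 43.1 CPM and were not read as expression. Chondrocyte-like cells are among the 9 classes of that background, so their nearness to it is partly built in. The erythroid-like level of 329 CPM stood above it, and its source was not tested. B2m, the light chain that Fcgrt pairs with and that also belongs to MHC class I, was higher in the CFA library. It stood at 723 and 1565 CPM in endothelial-like cells (ratio 2.16, 2.09 to 2.24), at 291 and 1982 in fibroblast-like cells (6.80, 6.44 to 7.18) and at 924 and 2130 in macrophage-like cells (2.30, 1.99 to 2.68). The B2m ratio was above 1 in all 27 clusters with enough UMIs, with an interval above 1 in 25.

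Genes of the signalling path below the receptors were read from lists. Over all cells, 10 of 14 genes of the activating path were higher in the CFA library and none was lower, with a median ratio of 2.97, where 9.56% of all genes tested were higher and their median was 0.869. They included the kinases Syk (64.0 and 178 CPM, ratio 2.78) and Fgr (8.08) and the adaptors Lcp2 (5.01) and Lat2 (5.53). Of 9 genes of the inhibitory path, 6 were higher, with a median ratio of 4.56, among them the phosphatase Ptpn6 (3.70) and the inhibitory receptors Pirb (8.69) and Lilrb4a (13.9), whereas Inpp5d had 1.72. Within classes fewer activating genes passed 2-fold. In macrophage-like cells, where 17.6% of genes were higher and 13.8% lower, 1 of 14 activating genes was higher (Card9, from 1 and 46 UMIs) and 1 lower (Btk, 0.452), and none of 9 inhibitory genes passed in either direction. In immature neutrophil-like cells (8.18% of genes higher) Fgr (2.02) and Lat2 (0 and 20 UMIs, at least 1.87-fold higher against 3 counts) of 14 activating genes and Lilrb4a (2.38) of 9 inhibitory genes were higher. In mature neutrophil-like cells, where 17.9% of genes were higher and 23.0% lower, 1 of 12 activating genes was higher (Lcp2, 5.83) and 1 lower (Pik3cd, 0.482), and 4 of 7 inhibitory genes were higher (Ptpn6 2.72, Cd300a 2.44, Pirb 2.22 and Lilrb4a 2.08). In the Ly6c2 Ccr2 Mpo cluster (7.8% of genes higher) 1 of 14 activating (Fgr, 2.44) and 1 of 8 inhibitory genes (Pirb, 2.15) were higher.

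Other receptors for antibodies differed in both directions. Of 12 listed, 10 had enough UMIs over all cells, 2 were higher and 2 lower, where 9.56% and 10.4% of all genes were, with a median ratio of 1.13 against 0.869. Fcer1a, the IgE-binding chain of mast cells and basophils, stood at 1.29 and 4.39 CPM (ratio 3.41), and Fcrlb had 1 and 82 UMIs (50.2, 8.76 to 2007). The B cell genes Fcmr (0.361), a receptor for IgM, and Fcrl1 (0.421) were lower over all cells. B cell-like cells were 5.47% of PBS and 2.19% of CFA cells. Within them Fcmr stood at 72.6 and 76.3 CPM, a ratio of 1.05 (0.700 to 1.565). Fcrl1 stood at 34.5 and 16.6 CPM there, a ratio of 0.480 (0.209 to 1.01), where 5.2% of genes were lower. Fcrls, a gene of resident macrophages and microglia, stood at 91.4 and 5.80 CPM in macrophage-like cells, a ratio of 0.0635 (0.0333 to 0.123). The IgG heavy chains, the ligands, were scarce, with Ighg2b at 13 and 10 UMIs and no other with enough.

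Genes whose levels followed each member most closely were found by Pearson's r of log levels over 36 sums of a class in a library, among 14711 genes, as a description. The sums share libraries and depth, so no test was made. Fcgr1 was closest to Clec4a1 (r = 0.964) and Adgre1 (0.962), Fcgr3 to Lilrb4a (0.976) and Clec4e (0.973), Fcgr4 to Il1rn (0.960) and Cd300c2 (0.955) and Fcgr2b to March1 (0.951) and Adgre1 (0.916). Fcgrt was closest to Lima1 (0.918) and Laptm4a (0.916).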

How the data were processed

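The authors processed the reads of both libraries with Cell Ranger 7.0.1 against GRCm38 (mm10) and deposited raw UMI counts per gene and barcode, without normalization. The kit chemistry and the digestion differ between the labels and the methods. From the counts, barcodes with at least 500 genes, at most 10% mitochondrial and at most 1% hemoglobin UMIs were kept (27201994 PBS and 44432717 CFA UMIs). Seurat 5.3.0 (SeuratObject 5.2.0, sctransform 0.4.2, Matrix 1.6.5, R 4.3.3) normalized each library with SCTransform, integrated both on 3000 genes and clustered on 200 principal components at a resolution of 1.5, with the members and their pathway genes kept out of the features. Clusters were named from markers in at least 25% of cells at 2-fold or more (10 CPM added), with at least 3 markers.

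Python 3.11.15 (numpy 2.4.6, scipy 1.17.1, pandas 2.3.3) computed sums, intervals and ratios for classes with at least 20 cells in both libraries, and, as a choice made after seeing the data, at least 10. Shares carry exact Clopper-Pearson 95% intervals. The steps were tested on simulated data. Figures were drawn with matplotlib 3.10.9. Scrublet (scanpy 1.11.5) marked 21 PBS and 2 CFA cells, too few to have worked, so no doublets were removed, and removal of the 5% highest scores was an alternative. The members, lists and markers were chosen with earlier results of these data known. Genes named beside the members are those of the lists and, for likeness, the 2 with the highest r. Alternatives covered the limits on barcodes, the clustering, the scaling, a mean over cells and the depth of thinning. Some listed genes and motifs are not reported here.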

Additional observations from a re-analysis of the deposited data

Results flagged for a closer look

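The Fcgrt ratio of CFA to PBS had an interval that did not reach 1 in several classes, in opposite directions, and the difference between the classes was not tested. It was above 1 in erythroid-like cells (1.91, 1.04 to 3.42), from 33 PBS and 20 CFA UMIs. In that class 19.9% of genes were higher by at least 2-fold and the median ratio was 1.17. The class was named from 3 markers, Hba-a1, Car2 and Ermap, and its leading genes also included Obp1a, Obp1b and Mucl2. Its summed cells also differed in Igkc, at 1.68 CPM in the PBS and 20447 CPM in the CFA library. Lyz2 stood at 4.70 and 2607 CPM and Pigr at 4.70 and 33.8 CPM. The class may thus hold unlike cells in the PBS and CFA libraries, which was not tested. The Fcgrt ratio was below 1 in Schwann-like (0.715), endothelial-like (0.469), fibroblast-like (0.727), mural-like (0.718), osteoblast or osteocyte-like (0.624), lymphatic-like (0.385) and macrophage-like cells (0.0844), in the Ly6c2 Ccr2 Mpo cluster (0.473), in the shallow cluster with endothelial genes (0.286) and in the cluster led by Lsamp and Col8a1 (0.440).

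The barcodes left out for over 1% hemoglobin, 3178 PBS and 339 CFA barcodes, also held the receptors. In the CFA library Fcgr1 stood there at 9.40 CPM (6.62 to 12.96), Fcgr3 at 21.1, Fcgr4 at 9.66 and Fcgr2b at 14.5. The PBS barcodes had 1.01, 6.02, 1.58 and 4.63 CPM. Fcgrt was lower in the CFA barcodes here too, at 70.4 and 12.7 CPM.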

How the results depend on the processing

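No paired analysis was possible because each condition has 1 library. Over all cells the direction of the 5 members' ratios held under the 7 alternatives. A mean over cells gave 8.94 for Fcgr2b, 11.5 for Fcgr3, 25.7 for Fcgr4 and 0.528 for Fcgrt, and 0.577 for Fcgrt in endothelial-like cells. Without the 5% highest doublet scores Fcgr3 had 27.0. Fcgrt had 0.524 with no hemoglobin limit and 0.514 when scaled by the median ratio. In immature neutrophil-like cells Fcgr3 had 5.98 with no hemoglobin limit and 1.86 without the highest doublet scores. Fcgr4 had 10.6 with no hemoglobin limit, 1.04 as a mean over cells, 0.974 without the highest doublet scores, 0.932 without cells holding macrophage markers and 0.771 without those holding macrophage or B cell markers, and under the same last 3 choices Fcgr1 had 0.871, 0.282 and 0.701. The cause was not tested beyond these exclusions, whose marker choices were made after seeing the data. In macrophage-like cells the ratio ranged from 0.0386 to 0.165 for Fcgrt and from 2.18 to 5.14 for Fcgr4 over 12 alternatives. Leaving out cells with B cell or neutrophil markers gave 0.170 and 6.55, outside these ranges. The other members crossed 1 there, Fcgr1 from 0.692 to 2.23, Fcgr3 from 0.819 to 2.21 and Fcgr2b from 0.793 to 2.22. In mature neutrophil-like cells Fcgr4 ranged from 1.93 to 6.16 over 11 alternatives. Fcgr2b turned direction in mature neutrophil-like cells, from 0.765 to between 0.637 and 6.14 over 10 alternatives, with 6.14 as a mean over cells, and its CFA level ran from 41.6 to 263 CPM. Osteoclast-like macrophages did not form a class of their own at a resolution of 0.8 or with log-normalized counts. PBS classes of under 20 cells limit every ratio they enter.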

Other observations

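Antibody chains other than IgG were not alike. Most Ighm UMIs were in B cell-like cells, 2161 of 3081 in the PBS and 1434 of 2679 in the CFA library. Igkc had 2567 of its 2914 PBS UMIs in B cell-like cells but 19355 of its 21140 CFA UMIs in the erythroid-like class. Igha and Jchain were concentrated in few cells. Igha, the IgA heavy chain, had 2 PBS and 3870 CFA UMIs, and Jchain, which joins IgA and IgM into polymers, had 4 and 2330. Of these, 3485 and 2227 CFA UMIs were in the erythroid-like class, where 7.89% of its 76 cells held Igha and 2.63% held Jchain.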
